A study of Mus musculus with 16 samples.

Results

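Immediate early genes are transcribed within minutes of a stimulus from factors already present in the cell, and 8 of them were described here in skeletal muscle: Fos, Egr1, Jun, Junb, Ier2, Btg2, Zfp36 and Dusp1. Every probe set whose only gene symbol in the platform annotation was one of these names was taken, whatever its values. This gave 8 probe sets for 6 genes among 7729 probe sets in the table, and all 8 were bright enough to be among the 4637 tested. Junb and Ier2 were not analysed here. Jun and Btg2 had 2 probe sets each, and Fos, Egr1, Zfp36 and Dusp1 had 1 each.

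The samples came from female C57BL/6 mice aged 7 weeks, when the series calls the transgenic animals presymptomatic. The SOD1G93A mice carried a human transgene for a mutant superoxide dismutase 1 that causes a motor neuron disease like amyotrophic lateral sclerosis, and their controls were non-transgenic (NTg); the labels name no promoter, copy number or colony for the transgene. Gastrocnemius and triceps were taken from 4 mice of each genotype, frozen at once in liquid nitrogen and hybridised separately, which gives 16 arrays in 4 groups of 4. Replicates are numbered from 1 to 4 within each genotype and muscle. The same number in both muscles of a genotype was taken to mark the same mouse, which the sample titles do not state. The labels do not say whether mice numbered 1 and 2 and mice numbered 3 and 4 were handled apart.

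Fos and Jun proteins pair to form the transcription factor AP-1, and Egr1 is a zinc-finger transcription factor. All 3 are switched on by growth factor, calcium and stress signalling through MAP kinases, serum response factor and CREB, and in muscle they respond to contraction, stretch and injury. The other members act as brakes: Dusp1 is a phosphatase that inactivates MAP kinases, Zfp36 (tristetraprolin) binds AU-rich elements and destabilises short-lived mRNA, and Btg2 is an antiproliferative protein that recruits the deadenylase complex. Their mRNAs decay quickly, so a tissue's level at the moment of freezing reflects a short time window.

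The arrays were those of fast skeletal muscle by their defining markers. Ckm, Acta1, Pvalb, Tnnt3, Myh4, Mylpf and Atp2a1 were all at or near the 99.9th percentile of probe set means, and all 12 fast fibre markers and 8 slow fibre markers were in the table. Array medians lay between 7.10 and 7.26, and pairs of arrays correlated at 0.803 to 0.975. In 3 triceps arrays, NTg replicates 1 and 2 and SOD1G93A replicate 2, Ckm, the muscle creatine kinase, was at 12.84, 13.02 and 12.76, against 13.84 to 14.51 in the other triceps arrays. All 3 carry the numbers 1 or 2, and NTg triceps has no other arrays with those numbers. Ckm was lower in numbers 1 and 2 in gastrocnemius as well, at 13.97 to 14.31 against 14.44 to 14.71 in numbers 3 and 4. The main results that involve triceps are also given without the 3 triceps arrays, which takes away mostly 1 side of the number contrast. Leaving them out leaves triceps with 1 array numbered 1 or 2, and NTg triceps with none.

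The proximal promoters of 5 members are shown, and that of Egr1 is not among them. Whether the sites searched bear on the signals of these genes was not tested. Each is the 250 bases before the transcription start, 5′ to 3′ on the gene's own strand, from RefSeq on GRCm38.p6, with the matches found in it in capitals.
Fos, chr12:85473640-85473889, plus strand: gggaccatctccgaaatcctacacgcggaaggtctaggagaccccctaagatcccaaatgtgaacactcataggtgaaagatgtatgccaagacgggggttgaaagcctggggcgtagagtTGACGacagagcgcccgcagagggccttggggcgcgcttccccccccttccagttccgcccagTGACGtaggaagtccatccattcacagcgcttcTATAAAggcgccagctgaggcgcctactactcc
Jun, chr4:95052223-95052472, minus strand: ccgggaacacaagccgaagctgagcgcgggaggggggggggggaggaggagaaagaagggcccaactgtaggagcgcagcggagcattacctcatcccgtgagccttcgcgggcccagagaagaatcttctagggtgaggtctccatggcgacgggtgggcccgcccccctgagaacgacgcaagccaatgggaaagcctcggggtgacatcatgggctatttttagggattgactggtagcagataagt
Zfp36, chr7:28379229-28379478, minus strand: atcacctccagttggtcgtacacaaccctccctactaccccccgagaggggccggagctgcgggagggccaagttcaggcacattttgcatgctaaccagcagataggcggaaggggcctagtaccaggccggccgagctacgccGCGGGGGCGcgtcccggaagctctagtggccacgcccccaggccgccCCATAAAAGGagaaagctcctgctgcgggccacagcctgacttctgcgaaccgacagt
Dusp1, chr17:26508473-26508722, minus strand: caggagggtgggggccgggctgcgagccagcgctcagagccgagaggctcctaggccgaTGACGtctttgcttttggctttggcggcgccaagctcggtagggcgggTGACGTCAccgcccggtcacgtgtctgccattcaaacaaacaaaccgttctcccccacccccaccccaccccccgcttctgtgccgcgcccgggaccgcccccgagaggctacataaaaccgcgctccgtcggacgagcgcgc
Btg2, chr1:134079156-134079405, minus strand: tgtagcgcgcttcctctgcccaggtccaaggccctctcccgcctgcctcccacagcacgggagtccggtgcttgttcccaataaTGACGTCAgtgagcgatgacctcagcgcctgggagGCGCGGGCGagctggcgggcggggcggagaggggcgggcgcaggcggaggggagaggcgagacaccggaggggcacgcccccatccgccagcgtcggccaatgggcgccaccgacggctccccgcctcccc

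The sites were searched on both strands in these windows and in 32851 RefSeq promoter windows of the same length. The CArG box, bound by serum response factor, was found in 1.47% of all windows and here only in that of Zfp36, starting at -58 from the transcription start. The full cAMP response element TGACGTCA, bound by CREB, was in 1.55% of all windows and here in Dusp1 (-143) and Btg2 (-166). Its shorter core TGACG, which lies within every full site on both strands, was in 17.8% of all windows; it occurred in Fos at -129 and -66, and apart from the full site in Dusp1 at -191. The EGR site GCGNGGGCG was in 4.7% of all windows and here in Zfp36 (-105) and Btg2 (-131), the TATA box TATAAA was in 12.4% and here in Fos (-33), and the AP-1 site TGAGTCA was in 4.46% of all windows and in none of these 5. The Jun window held none of the 6 motifs. A match describes the letters of the window, and a missing match says nothing about binding elsewhere.

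Fos had the largest mean difference of the 8 probe sets between mice numbered 1 and 2 and mice numbered 3 and 4. In NTg gastrocnemius its log2 signal was 8.76 and 8.28 in replicates 1 and 2 and 5.40 and 6.48 in replicates 3 and 4. In NTg triceps the 4 values in the same order were 9.43, 7.82, 6.41 and 6.56. All 4 NTg arrays numbered 3 or 4 were below all 4 numbered 1 or 2. In SOD1G93A gastrocnemius Fos was at 8.47, 8.46, 8.07 and 7.41 in replicates 1 to 4. In SOD1G93A triceps it was at 9.20, 10.01, 8.26 and 7.52. Here too the arrays numbered 3 or 4 were the lower ones, without overlap, but they stayed above every NTg array with those numbers. Over both genotypes and muscles Fos had a mean of 8.80 ± 0.70 (SD, n = 8 arrays, both muscles of 4 mice) in the lower-numbered mice and of 7.01 ± 0.97 (SD, n = 8 arrays of 4 mice) in the higher-numbered mice. Across genotypes the number sets overlapped: the mean of both muscles was 8.16 in SOD1G93A mouse 3 and 8.05 in NTg mouse 2.

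Egr1 showed the same order with a clearer split by genotype. NTg gastrocnemius replicates 1 to 4 were at log2 8.15, 7.59, 5.86 and 6.86. NTg triceps replicates were at 8.65, 7.99, 6.42 and 6.83. The NTg arrays numbered 3 or 4 reached at most 6.86, and those numbered 1 or 2 were at 7.59 or above. SOD1G93A gastrocnemius replicates were at 7.88, 7.72, 8.02 and 7.68, and so hardly varied. SOD1G93A triceps replicates were at 9.22, 9.24, 8.05 and 8.20. In the transgenic mice the fall with number was thus seen in triceps and not in gastrocnemius, a contrast between the muscles that was not tested. The means were 8.30 ± 0.66 in numbers 1 and 2 and 7.24 ± 0.87 in numbers 3 and 4 (SD, n = 8 arrays of 4 mice each).

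Jun had its brighter probe set, 1417409_at, at log2 8.41, 8.54, 7.06 and 6.95 in NTg gastrocnemius replicates 1 to 4. It was at 8.66, 7.58, 7.03 and 6.37 in NTg triceps. In SOD1G93A gastrocnemius it was at 7.81, 7.05, 7.80 and 6.06, the only one of the 4 groups in which the sets overlapped. In SOD1G93A triceps it was at 8.32, 8.75, 7.20 and 7.05. The second probe set, 1448694_at, spanned 7.35 to 7.87 in the 8 arrays numbered 1 or 2 and 6.54 to 7.22 in the other 8, with no overlap in either genotype or muscle. Both probe sets placed all 4 mice numbered 3 or 4 below all 4 mice numbered 1 or 2 when the muscles of a mouse were averaged.

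The genes that act as brakes had lower medians in mice 3 and 4 as well. Dusp1 ran from 9.10 through a median of 9.72 to 10.20 in numbers 1 and 2 and from 8.51 through 8.99 to 9.52 in numbers 3 and 4. Zfp36, whose mean was just above the limit of log2 6.75 for testing, ran from 6.64 through 7.28 to 7.84 and from 5.90 through 6.33 to 6.94. The ranges of both genes overlapped between the number sets. Btg2 was the least divided: 1416250_at ran from 6.72 through 7.92 to 8.23 against 7.14 through 7.37 to 8.46, and 1448272_at from 6.92 through 7.42 to 7.85 against 6.49 through 6.73 to 7.54. Its highest and lowest values on 1416250_at both went against the order, in SOD1G93A triceps replicate 3 and NTg triceps replicate 2.

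**Figure D1:**
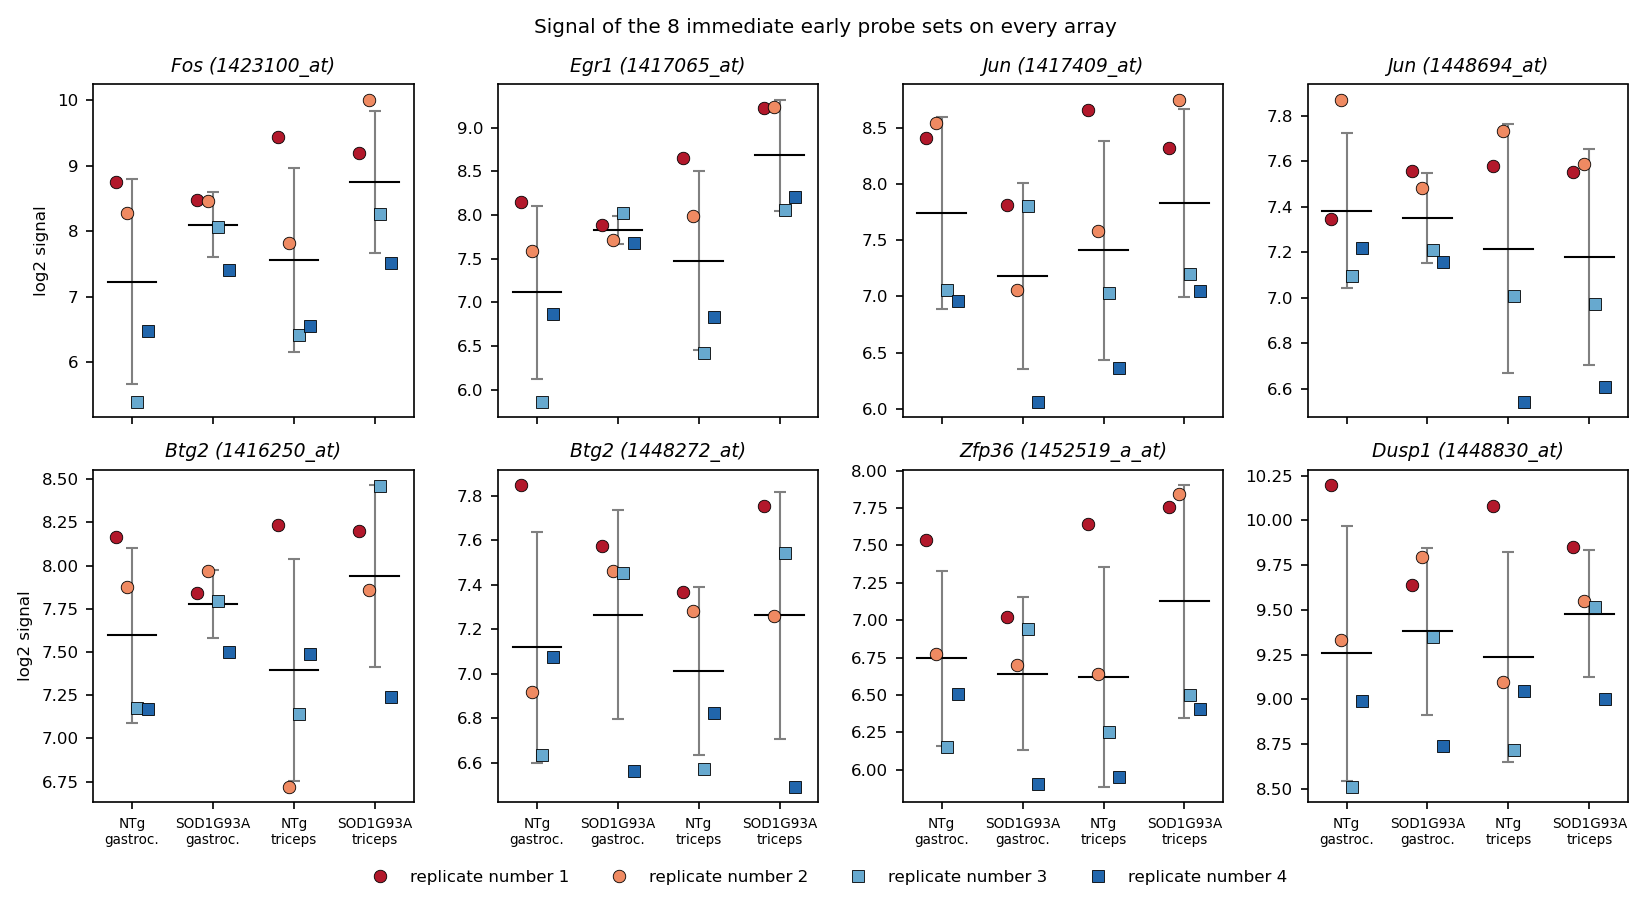
Log2 signal of the 8 probe sets (vertical axes, one panel each with its own scale) on every array, by genotype and muscle (horizontal axis). Red circles are replicate numbers 1 and 2, blue squares are numbers 3 and 4, black lines are group means and grey bars the SD (n = 4). In Fos and Egr1 the blue squares of the NTg groups lie between 5.40 and 6.86, lower than every other point.

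Between the number sets, 417 of 4637 probe sets differed at an adjusted p under 0.05 (limma with the mouse as a random block, Benjamini-Hochberg). That was 8.99% of those tested: 4.74% were higher in mice 3 and 4 and 4.25% lower. The fitted correlation within a mouse was 0.027, a single value over all tested probe sets. The fit thus treated both muscles of a mouse as nearly independent for every gene. No such correlation was fitted for the members alone, so their p-values in this fit do not rest on the mice alone. Of the 8 probe sets of immediate early genes, 6 were called lower and none higher, all 8 had a difference below 0, and their median was -0.81 against -0.0066 over all tested. Counting the brighter probe set of each gene, 5 of 6 genes were called. Centring each array on its median gave 348 higher and 152 lower calls in place of 220 and 197, and also called 6 of the 8. Without the 3 triceps arrays low in Ckm, 173 probe sets and 3 of the 8 were called.

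Fos fell by 1.79 on the log2 scale (SE 0.27, adjusted p = 0.00149 by limma), a 3.46-fold difference with a 95% interval of 2.32 to 5.16. It ranked the second largest of all decreases by size. Jun fell by 1.20 (SE 0.24, adjusted p = 0.00656) on the brighter probe set and by 0.61 (SE 0.13, adjusted p = 0.00765) on the other, so its probe sets agreed in direction and differed in size. Egr1 fell by 1.06 (SE 0.22, adjusted p = 0.00765), or 2.09-fold. Zfp36 fell by 0.91 (SE 0.20, adjusted p = 0.00877) and Dusp1 by 0.71 (SE 0.16, adjusted p = 0.0119). The Btg2 probe sets, at -0.54 (SE 0.18, adjusted p = 0.0681) and -0.36 (SE 0.21, adjusted p = 0.269), did not pass, and 1448272_at passed when SOD1G93A gastrocnemius replicate 3 (-0.62, adjusted p = 0.0378) or SOD1G93A triceps replicate 3 (-0.64, adjusted p = 0.0393) was left out. Exact two-sided permutation over 4 against 4 mouse means cannot go below p = 0.0286, and gave that value for both Jun probe sets, 0.0571 for Fos, Zfp36 and Dusp1, 0.0857 for Egr1, and 0.0857 and 0.343 for Btg2.

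Within parts of the data Fos was called each time. It fell by 1.65 in gastrocnemius alone (adjusted p = 0.0314), where Dusp1 fell too (0.85, adjusted p = 0.0477) and 82 probe sets were called in all. In triceps alone 361 were called, among them 5 of the 8 immediate early probe sets but not Dusp1 (-0.57, adjusted p = 0.12). The fits within 1 genotype set 2 mice against 2 mice, each giving both muscles, so their p-values rest on few mice. In NTg mice alone Fos fell by 2.36 (adjusted p = 0.0313), Egr1 by 1.60 and Jun by 1.45 (adjusted p = 0.0315 for both), with 104 calls in all. In SOD1G93A mice alone Fos fell by 1.22 (adjusted p = 0.0431) and was the only one of the 8 among 37 calls. Without the 3 triceps arrays low in Ckm the calls were those of Fos (-1.61, adjusted p = 0.00336), Dusp1 (-0.80, adjusted p = 0.00989) and Jun on 1417409_at (-1.04, adjusted p = 0.0454), while Egr1 stood at -0.84 (adjusted p = 0.0886), Zfp36 at -0.79 (adjusted p = 0.0894) and Jun on 1448694_at at -0.48 (adjusted p = 0.144).

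**Figure D2:**
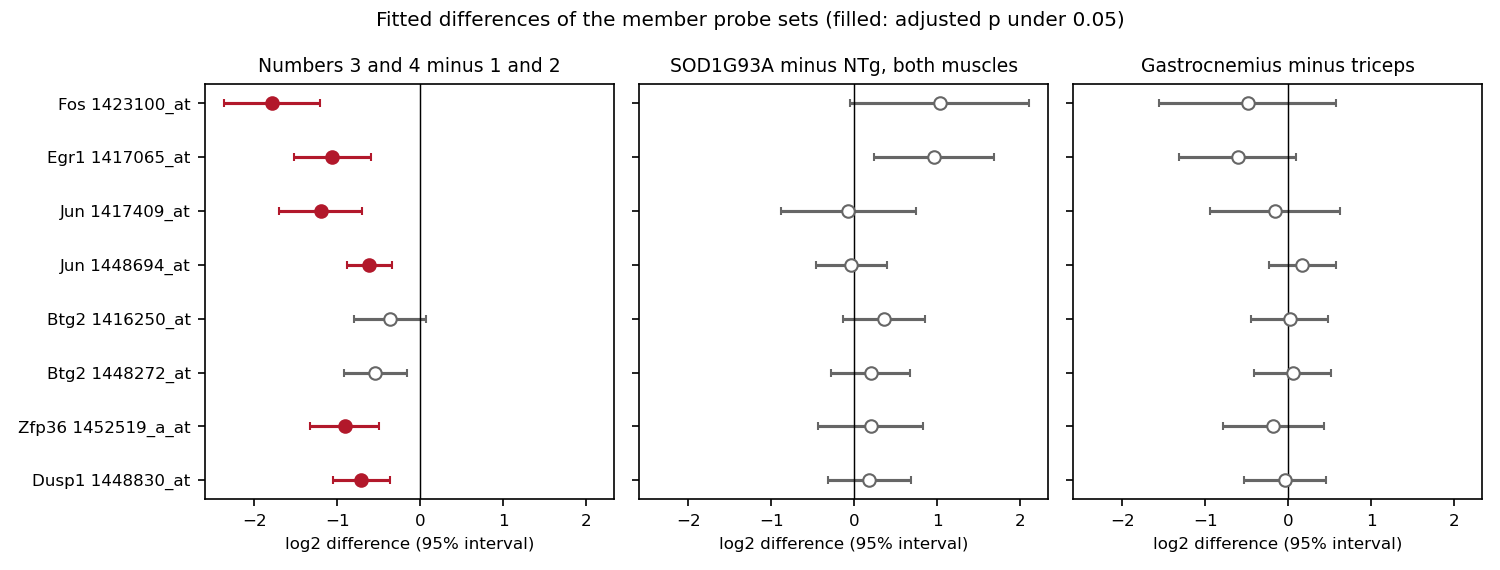
Fitted log2 difference (point) and 95% interval (bar) of the 8 probe sets in 3 comparisons on one horizontal scale, with calls at an adjusted p under 0.05 filled. Only the difference between mice 3 and 4 and mice 1 and 2 holds called probe sets, from Fos at -1.79 to Jun on 1448694_at at -0.61.

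Markers of the fibres moved the other way between the number sets, where 4.74% of all tested probe sets were called higher in mice 3 and 4. Of 12 fast fibre markers, 11 were called higher in mice 3 and 4, with a median difference of 0.77 (also 11, with a median of 0.43, without the 3 triceps arrays low in Ckm), and their mean level lay between 12.59 and 14.01 in numbers 1 and 2 and between 13.92 and 14.37 in numbers 3 and 4. In triceps that mean was 12.59 to 13.56 against 13.92 to 14.19, and in gastrocnemius 13.82 to 14.01 against 14.12 to 14.37, without overlap in either muscle. Ckm rose by 0.86 (adjusted p = 0.00451), but by 0.06 (adjusted p = 0.348) after quantile normalization, under which 6 of the 8 immediate early probe sets were called. All 8 slow fibre markers were above 0 and none was called, with a median of 0.83 and a mean level of 4.28 to 11.51 against 5.54 to 11.24. In whole muscle, fewer cells of a type and less RNA per cell cannot be told apart. The highest signal of any probe set also differed between arrays. It was 13.08 and 13.29 in NTg triceps replicates 1 and 2, 13.14 in SOD1G93A triceps replicate 2, and 13.94 to 14.81 in all other arrays. The part of array range or scaling in the marker differences was not tested.

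Markers of other cells gave no call between the number sets. In the table were 2 of 8 adipocyte markers (mean level 9.32 to 10.48 in numbers 1 and 2 and 9.30 to 9.76 in numbers 3 and 4), 6 of 6 fibroblast markers (8.70 to 10.17 and 9.38 to 10.17), 2 of 6 Schwann markers (7.15 to 9.31 and 6.83 to 9.54) and 3 of 5 smooth muscle markers (7.45 to 8.15 and 6.64 to 8.07). Of the leukocyte markers 6 were in the table and 3 bright enough to test (6.77 to 7.62 and 5.89 to 7.61). The neutrophil, endothelial and satellite cell lists had 1, 2 and 1 markers there, all too dim to test, and no erythroid marker was analysed here. The part of fibre content or of other cells in the fall of the immediate early genes was not tested.

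**Figure D3:**
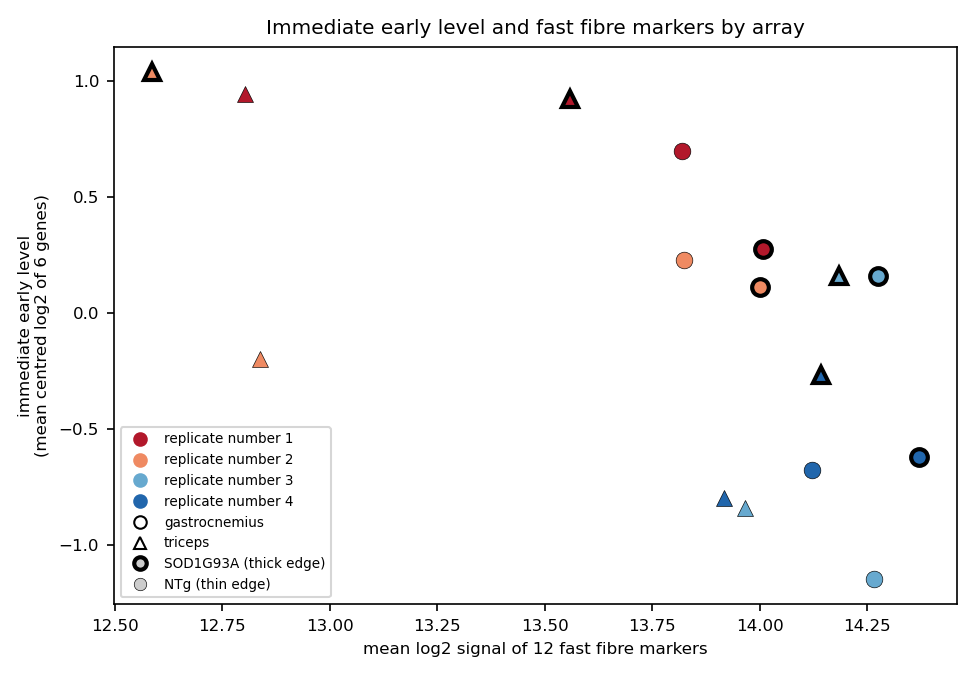
The immediate early level of each array (vertical axis, mean over the 6 genes of log2 signal centred on the gene's own mean) against the mean log2 signal of 12 fast fibre markers (horizontal axis). Arrays numbered 3 or 4 (blue) lie at 13.92 or above on the horizontal axis and at 0.161 or below on the vertical axis, and the 3 triceps arrays of lowest marker level, all numbered 1 or 2, span -0.196 to 1.04.

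Averaged over the 6 genes after centring each on its own mean, the immediate early level ran from -0.196 to 1.04 in mice 1 and 2 and from -1.15 to 0.161 in mice 3 and 4. Of the triceps arrays low in Ckm, NTg replicate 2 was the lowest of the first set. The others, NTg replicate 1 (0.946) and SOD1G93A replicate 2 (1.04), were the highest of all arrays. In the other set the 4 NTg arrays (-1.15 to -0.676) lay below the 4 SOD1G93A arrays (-0.621 to 0.161).

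The genotype comparison asks whether presymptomatic transgenic muscle differs from control muscle. By mean level Fos was ordered SOD1G93A triceps (8.75 ± 1.09), SOD1G93A gastrocnemius (8.10 ± 0.50), NTg triceps (7.56 ± 1.40) and NTg gastrocnemius (7.23 ± 1.57; SD, n = 4 each), and the ranges of neighbours overlapped. Egr1 had the same order, at 8.68 ± 0.64, 7.83 ± 0.16, 7.47 ± 1.03 and 7.11 ± 0.99, and only its SOD1G93A muscles did not overlap. The other members did not have this order of groups, though both SOD1G93A means were above both NTg means for Dusp1 and for each Btg2 probe set. Jun on 1417409_at was highest in SOD1G93A triceps (7.83 ± 0.84) and lowest in SOD1G93A gastrocnemius (7.18 ± 0.83), with the NTg groups between, and all ranges overlapped. Jun on 1448694_at spanned means of 7.18 to 7.38, Btg2 of 7.40 to 7.94 and 7.01 to 7.26, Zfp36 of 6.62 to 7.13 and Dusp1 of 9.24 to 9.48, with overlap between all neighbours.

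Over both muscles 0 of 4637 probe sets differed between genotypes (0%; 85 at an unadjusted p under 0.05, 1.83%), so no member was called. Egr1 was 0.96 higher in SOD1G93A mice (SE 0.34, unadjusted p = 0.0122, adjusted p = 0.997 by limma), with a 95% interval of 0.24 to 1.68. Fos was 1.03 higher (SE 0.51, unadjusted p = 0.0602, adjusted p = 0.997), with an interval of -0.05 to 2.12. The exact two-sided permutation over mouse means gave p = 0.114 for Egr1 and p = 0.257 for Fos. The other 6 probe sets lay between -0.07 (Jun) and 0.36 (Btg2).

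In single muscles the calls were again 0, with 103 probe sets (2.22%) at an unadjusted p under 0.05 in gastrocnemius and 118 (2.54%) in triceps. Egr1 differed by 0.71 (SE 0.47) in gastrocnemius and 1.21 (SE 0.47) in triceps, and Fos by 0.87 (SE 0.72) and 1.19 (SE 0.72). Without NTg gastrocnemius replicate 3 the gastrocnemius values were 0.29 for Egr1 and 0.26 for Fos. Without the 3 triceps arrays low in Ckm the triceps values were 1.87 and 1.84, from NTg mice 3 and 4 alone against SOD1G93A mice 1, 3 and 4, and still not called. The difference of the genotype effect between muscles, tested itself, was -0.50 (SE 0.67) for Egr1 and -0.32 (SE 1.01) for Fos, with adjusted p = 0.999 by limma for each and 0 calls overall (86 at an unadjusted p under 0.05, 1.85%). It was -1.15 and -0.97 without those 3 arrays. The Jun probe sets were at -0.56 (SE 0.52) and -0.03 (SE 0.27) in gastrocnemius, and at 0.42 (SE 0.52) and -0.04 (SE 0.27), with opposite signs, in triceps.

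The genotypes lay further apart among mice 3 and 4. There Fos averaged 7.82 ± 0.41 in SOD1G93A and 6.21 ± 0.55 in NTg arrays, and Egr1 7.99 ± 0.22 and 6.49 ± 0.47 (SD, n = 4 arrays of 2 mice). Among mice 1 and 2 Fos averaged 9.04 ± 0.74 and 8.57 ± 0.69, and Egr1 8.52 ± 0.83 and 8.09 ± 0.44. All 4 SOD1G93A arrays were above all 4 NTg arrays for 2 of the 8 probe sets, Egr1 and Fos, in numbers 3 and 4 (1.27% of all tested) and for 0 of 8 in numbers 1 and 2 (1.36% of all tested). All 4 arrays numbered 3 or 4 were below all 4 numbered 1 or 2 for 6 of the 8 in NTg mice (5% of all tested) and for 3 of the 8, Fos, Dusp1 and Jun on 1448694_at, in SOD1G93A mice (3.49% of all tested).

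A fit within mice 3 and 4 put the genotype difference at 1.50 for Egr1 (SE 0.25, adjusted p = 0.0698 by limma) and 1.61 for Fos (SE 0.30, adjusted p = 0.0981). A fit within mice 1 and 2 put it at 0.42 and 0.46 (adjusted p = 0.895 by limma for both). Both fits set 2 SOD1G93A mice against 2 NTg mice, each giving both muscles, so their p-values rest on few mice. The change of the genotype difference from one set to the other, tested itself, was 1.07 for Egr1 (SE 0.33, unadjusted p = 0.00545, adjusted p = 0.973) and 1.14 for Fos (SE 0.49, unadjusted p = 0.033, adjusted p = 0.99). It was above 0 in all 8 probe sets, with a median of 0.29 against -0.015 over all tested, and called in 0 of 4637 (0%; 179 at an unadjusted p under 0.05, 3.86%). With the set as a term in the genotype fit the unadjusted p fell to 0.000418 for Egr1 and 0.00148 for Fos, with adjusted p = 0.273 and 0.542. The slow fibre markers also had a change of the genotype difference above 0, in 8 of 8 with a median of 1.16 and none called, and its part in the values of Egr1 and Fos was not tested.

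Between the muscles 171 probe sets differed, 3.69% of those tested, and no member was among them; blocking on the mouse gave 331 calls and again no member. Gastrocnemius minus triceps was -0.61 for Egr1 (SE 0.33, adjusted p = 0.279 by limma) and -0.49 for Fos (SE 0.51, adjusted p = 0.593). The other 6 probe sets lay between -0.18 (Zfp36) and 0.17 (Jun on 1448694_at). Without the 3 triceps arrays low in Ckm Egr1 stood at -0.09 and Fos at 0.26, a setting that also leaves mostly mice 3 and 4 in triceps. Within mice, gastrocnemius was the lower muscle in 7 of 8 for both genes, and in 5 of 5 (Fos) and 4 of 5 (Egr1) with no array low in Ckm. For the other probe sets it was the lower muscle in 2 of 8 (Jun on 1448694_at) to 5 of 8 mice (Zfp36 and Dusp1). With no array low in Ckm these ran from 0 of 5 (Jun on 1448694_at) to 5 of 5 (Dusp1). All 8 slow fibre markers were called higher in gastrocnemius in the same comparison, with a median difference of 5.15.

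Across the 16 arrays the members rose and fell together. Over the 15 pairs of genes, with the brighter probe set of each, Pearson's r ranged from 0.496 (Jun with Btg2) to 0.934 (Fos with Egr1), with a median of 0.752; on the 13 arrays without those low in Ckm the range was 0.494 to 0.915 and the median 0.734. The closest partner of Jun was Zfp36 (0.911), and that of Btg2 was Dusp1 (0.797). These arrays share mice and the difference between number sets; once the mean of each genotype, muscle and set was removed, the pairs ranged from 0.291 to 0.811 with a median of 0.705, on 16 arrays in 8 pairs. The weaker Jun probe set, 1448694_at, then had r between -0.41 (Egr1) and -0.05 (Fos) with the other genes.

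The 8 genes most like the immediate early level among 4164 others compared were Tsn (r = 0.914), Lrp1 (0.893), Ssbp1 (0.863), Lrrc58 (0.861), Nrip1 (0.834), Nr3c1 (0.832), Dhx9 (0.817) and Snrk (0.812), over the same 16 arrays. Tsn encodes the RNA-binding protein translin, Lrp1 an endocytic receptor, Nrip1 a nuclear receptor corepressor, Nr3c1 the glucocorticoid receptor and Dhx9 an RNA helicase. Of these, 7 were called lower in mice 3 and 4, by 0.45 (Snrk) to 0.79 (Nrip1; adjusted p up to 0.0483 by limma), and Ssbp1 was at -0.37 (adjusted p = 0.0825), which follows in part from how they were picked. With group and set means removed, their r was 0.298 (Snrk) to 0.839 (Ssbp1).

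Other early response genes also fell between the sets, though not as a whole. Of 76 genes on this list 45 were in the table and 24 were tested: 11 were called lower and 2 higher in mice 3 and 4, with a median of -0.46. Over all tested probe sets 4.25% were called lower and 4.74% higher, with a median of -0.0066. Ccn2, a matricellular protein induced by stretch and TGF-beta, fell by 1.74 (SE 0.13, adjusted p = 8.98e-07 by limma), the smallest p of all probe sets. Gadd45g, a stress-response gene, fell by 1.97 (SE 0.26, adjusted p = 0.00065). The glucocorticoid- and cytokine-responsive factors Cebpd and Cebpb fell by 1.46 and 0.85, the clock gene Per1 by 1.29, the EGF receptor inhibitor Errfi1 by 1.23, and the zinc-finger factor Klf4 by 1.15. Id1, an inhibitor of DNA binding, fell by 0.88, the small GTPase Rhob by 0.69, the NF-kB inhibitor Nfkbia by 0.52 and the survival factor Mcl1 by 0.47.

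The called genes of opposite direction were Irf1, an interferon-response factor, at 0.58, and Bhlhe40, a clock repressor, at 0.55. Nr4a1, a contraction-responsive orphan receptor, was at -0.34 (adjusted p = 0.134), and Jund, another AP-1 subunit, at 0.06 (adjusted p = 0.803). Without the 3 triceps arrays low in Ckm 10 of the 13 calls were kept, all of them lower. The calls of Id1, Per1 and Bhlhe40 were lost when any of 11, 10 and 6 single arrays was left out, with adjusted p up to 0.107, 0.0856 and 0.0573. In gastrocnemius alone 4 of the 13 kept their call.

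**Figure D4:**
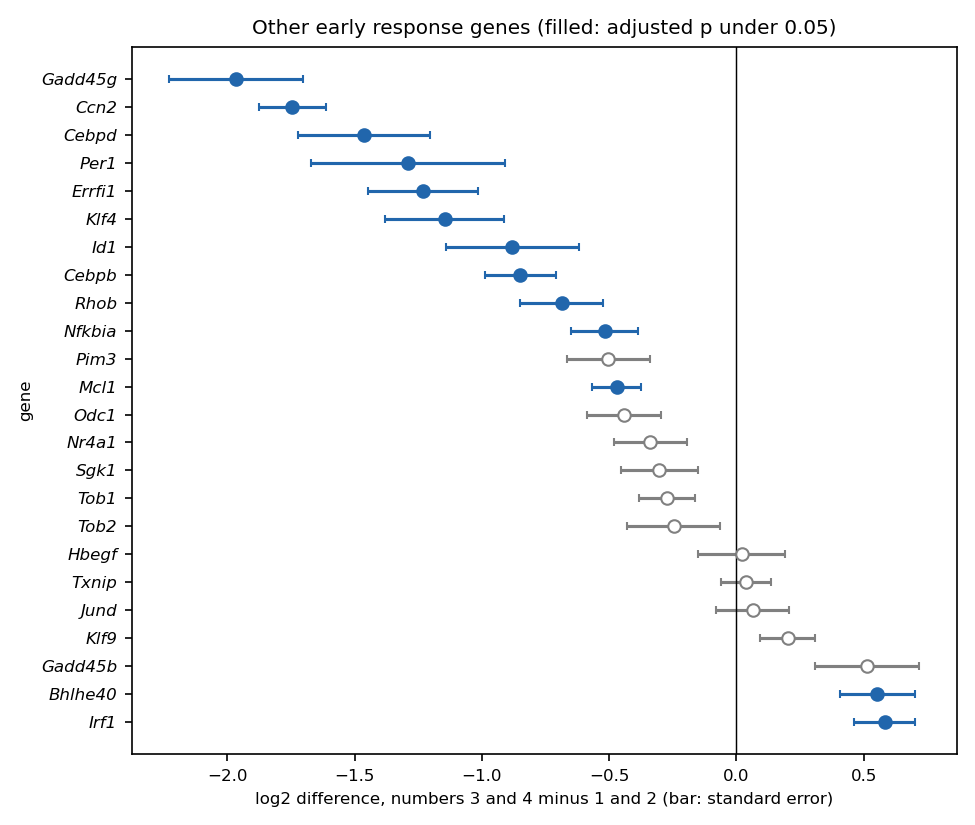
Log2 difference of the 24 tested genes of the early response list between mice 3 and 4 and mice 1 and 2 (point), with its standard error (bar); filled points have an adjusted p under 0.05. The 11 filled points left of 0 run from Gadd45g at -1.97 to Mcl1 at -0.47, and the 2 right of 0 are Bhlhe40 at 0.55 and Irf1 at 0.58.

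Over all tested probe sets 8.99% were called between sets and 3.69% between muscles, and no list below was tested against these shares. Lists of signalling and mRNA turnover genes were taken for their bearing on the immediate early genes. Of 42 signalling genes that lead to their promoters 21 were in the table and 17 tested, with a median of 0.05 between sets; Egfr, the epidermal growth factor receptor, rose by 0.99 in mice 3 and 4 (adjusted p = 0.011 by limma) and none was called lower (4 at an unadjusted p under 0.05), and without the 3 triceps arrays low in Ckm Egfr was at 0.47 (adjusted p = 0.105). Between muscles Rhoa, a small GTPase upstream of serum response factor, was 0.47 higher in gastrocnemius (adjusted p = 0.0499), and at 0.25 (adjusted p = 0.242) without those arrays. Of 29 genes of mRNA turnover 14 were in the table and 9 tested, with a median of -0.03 and no call between sets (1 at an unadjusted p under 0.05).

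Between genotypes none of these lists held a called gene. The smallest p in each were those of Txnip (0.37, unadjusted p = 0.00254) and Sgk1 (-0.42), Mrtfa (0.31) and Srf (0.30), and Pabpc1 (0.28) and Ddx6 (0.20), all with adjusted p = 0.997 by limma. Tested for a change of the genotype difference between sets, Gadd45g had the lowest p on the early list (-1.79, unadjusted p = 7.08e-05, adjusted p = 0.318), opposite in sign to Fos and Egr1, and it passed only without NTg triceps replicate 1 (-1.78, adjusted p = 0.0239).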

How the data were processed

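Per the labels' protocols, total RNA of each muscle was extracted with Trizol, cleaned on RNeasy columns and labelled as biotinylated cRNA from 4 ug for an Affymetrix mouse array. The deposited table holds 1 log2 signal per probe set and array, and base 2 was inferred from its range; the submitters' processing notes name MAS5 without a version. How the 7729 probe sets were scaled and chosen is not given in the sources used here. Of these, 7053 have 1 gene symbol in the platform annotation, 330 several and 346 none; 7048 symbols were found in RefSeq (GRCm38.p6).

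Probe sets with a mean above the 40th percentile (log2 6.75; 4637) were fitted with limma 3.58.1 in R 4.3.3 (lmFit, eBayes with intensity trend, all 16 arrays, Benjamini-Hochberg at 0.05). Averages over muscles, and comparisons of number sets, had the mouse as a random block. The fitted correlation within a mouse was 0.027 between number sets, 0.185 between genotypes and 0.112 for the change of the genotype difference. Between number sets, 6 of the 8 probe sets of members were also called without the block. Both muscles of a mouse were taken to share its number: their deviations from group means correlated at 0.136 to 0.388, in 8 of 8 mice best with their own partner. These deviations still hold the difference between number sets. The script was tested on simulated data with independent arrays and no mouse effect, which cannot check how the mouse block performs. The number of arrays limits the precision, and the labels do not say how mice were housed or processed. In the blocked fits the p-values rest largely on the spread between these arrays, since the fitted correlations within a mouse were small. Only the permutation over mouse means rests on the mice alone.

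Named were all members, the 8 probe sets most like them, called genes of 3 lists (other early genes, signalling, mRNA turnover; without calls the smallest p) and marker lists. The members, lists, 3 arrays low in Ckm and number sets were chosen with earlier results of these data known. The direction of a member between number sets is therefore no independent evidence for the choice of these genes. Alternatives covered filter, scaling, trend, blocks and left-out arrays.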

Additional observations from a re-analysis of the deposited data

Results flagged for a closer look

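Of 32 sets of 4 values (8 probe sets in 4 groups) 1 held a value far from the others: Btg2 on 1448272_at was at log2 6.56 in SOD1G93A gastrocnemius replicate 4 and between 7.45 and 7.58 in the other replicates. The gap was 0.879 of the range, above the 95% critical value of Dixon's test for 4 samples. At that level chance flags a share of about 0.05 of such groups. Leaving this array out did not bring that Btg2 probe set past the threshold between number sets.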

How the results depend on the processing

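Fos kept its call between number sets in all 27 alternatives run, Egr1 in 24, Dusp1 in 24 and Jun on 1417409_at in 25 of 27; Btg2 on 1416250_at was called in 0 of 27. In the 26 run for probe sets too dim for the 60th percentile filter, Jun on 1448694_at and Zfp36 kept theirs in 22 each and Btg2 on 1448272_at was called in 2. All 8 probe sets kept their direction there. The 417 calls between sets became 249 after quantile normalization, 173 without the 3 triceps arrays low in Ckm, 82 in gastrocnemius, 104 in NTg and 37 in SOD1G93A arrays, and 261 (without NTg gastrocnemius replicate 2) to 484 with 1 array left out; members called were 3, 2, 3 and 1 without the low arrays, in gastrocnemius, NTg and SOD1G93A arrays, and 6 to 7 with 1 array left out. Among the scalings, median centring moved the split of calls as given above; SOD1G93A arrays alone gave 8 higher and 29 lower.

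The 171 calls between muscles became 103 without those 3 arrays, 408 with the number as a fixed replicate block, 331 with the mouse block, 436 with the number set as a term, and 99 (without SOD1G93A triceps replicate 2) to 272 (without NTg triceps replicate 3) with 1 array left out, with 0 members each time. Arrays of one number and muscle in the 2 genotypes correlated at 0.000647 to 0.373, not all above 0.1, and were not treated as pairs; with the number as a replicate block the genotype call stayed at 0, with Egr1 at adjusted p = 0.248 and Fos at 0.578. Genotype calls were 0 except within mice 3 and 4, where 2 passed, Gadd45g (-2.04) and Tob2 (-1.59), named after their values were seen. That fit sets 2 mice against 2 mice, so these calls rest on few mice. The change of the genotype difference between sets had 0 to 36 calls with 1 array left out, 36 without NTg triceps replicate 1, and could not be fitted without the 3 low arrays, which leaves NTg triceps 1 and 2 with no array.

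Signs turned only for differences that were not called. Over both muscles Jun between genotypes was 0.029 and 0.095 without the low arrays (1417409_at and 1448694_at), 0.17 and 0.021 within mice 3 and 4, and -0.23 to 0.12 and -0.14 to 0.056 with 1 array left out; Pabpc1 was -0.0090 and Mrtfa -0.032 within mice 3 and 4. Fos between muscles was 0.26 without the low arrays, and its difference of genotype effects between muscles ran from -0.94 to 0.19 with 1 array left out. The change of the genotype difference between sets ran from -0.081 to 0.65 and -0.16 to 0.32 for Btg2, from -0.017 to 0.23 for Jun on 1448694_at and from -0.22 to 0.30 for Zfp36. The cause of these changes was not tested.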
